A study of Mus musculus with 24 samples.

Results

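The genes Mcm2, Mcm3, Mcm4, Mcm5, Mcm6 and Mcm7 encode the subunits of the MCM2 to MCM7 replicative helicase. They were followed in single mouse haematopoietic stem cells (HSCs), the cells of the bone marrow from which all blood lineages arise. The members were the rows of the deposited table of unique molecular identifier (UMI) counts whose name, split on semicolons, held one of these symbols. This gave 6 rows of 27297, one for each gene, and none of them shared its name with another gene. The cells were sorted as LSK (no lineage markers, with Sca-1 and Kit), CD150+, CD48- from mice of the strain -60/DR5-TA-RA-CFP, a reporter line in which cyan fluorescent protein (CFP) follows retinoic acid signalling. No other allele or agent is named in the labels, and neither age nor sex is given in the sources used here. The groups set against each other were the 286 CFP-bright, 858 CFP-intermediate and 286 CFP-dim cells, all of this strain, taken as the 20% highest, the rest and the 20% lowest CFP ranks within each sort plate. The index record also gives each cell a whole number from 1 to 10, here called its map group, whose meaning is not stated.

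The MCM proteins form a ring of different subunits that is loaded onto replication origins in G1 by the origin recognition complex with Cdc6 and Cdt1, and that unwinds DNA in S phase once Cdc45 and the GINS complex have joined it. Their genes are classic targets of the E2F transcription factors and are switched on as a resting cell enters the cycle. Most HSCs rest outside the cycle, and lower MCM expression has been described in HSCs of old mice. Mcm4, Mcm6 and Mcm7 form a subassembly that can unwind DNA by itself in vitro, Mcm2 and Mcm5 form the gate through which DNA enters the ring, and Mcm2 also binds histones.

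In the results that follow, all 6 members were highest on average in the same map group. Their profiles were not all closely alike, but some groups held few UMIs, and differences between profiles were not tested. The promoters of the members are shown with the letters of the E2F motif. A part of E2F factors in these levels was not tested. The RefSeq promoter table (GRCm38.p6; 250 bases before to 50 bases after a gene's start) held 5 of the 6 members, with 2 windows for Mcm7; Mcm4 had no entry. The E2F motif was searched as TTTCCCGC, TTTCGCGC, TTTGCCGC or TTTGGCGC on both strands. Of 32851 promoter windows of all genes, 2.26% held at least 1 such match, and 4 of the 6 windows of the members did. In the stretches below, 5′ to 3′ along the gene, capitals mark these matches.
Mcm3, chr1:20820267-20820293, minus strand: GCGGGAAAacttgggaagtTTTGGCGC
Mcm5, chr8:75109336-75109387, plus strand: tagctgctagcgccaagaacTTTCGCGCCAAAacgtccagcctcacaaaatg
Mcm6, chr1:128359725-128359835, minus strand: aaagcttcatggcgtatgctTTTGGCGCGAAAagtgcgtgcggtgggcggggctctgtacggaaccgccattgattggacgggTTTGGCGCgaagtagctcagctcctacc
Mcm7, chr5:138172021-138172068, minus strand: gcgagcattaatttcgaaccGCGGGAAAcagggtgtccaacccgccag

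Counted from the gene's start, the matches of Mcm6 began at -110, -106 and -47 and those of Mcm5 at -153 and -149, where 2 matches on opposite strands overlap in both genes. The matches of Mcm3 began at 20 and 39, after the start. One Mcm7 window held a match at -165 and another, TTTCGCGC, at 17, whose last base is also the first base of a CCAAT match; its other window had none. The Mcm2 window held no E2F match; its last 100 bases before the start (chr6:88898781-88898880, minus strand), shown because they hold GGGCGG in 2 places and TTTGAA in 1, read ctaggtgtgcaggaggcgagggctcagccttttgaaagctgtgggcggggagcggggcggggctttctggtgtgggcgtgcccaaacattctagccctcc. The CCAAT motif (both strands) was in all 6 windows of the 5 genes and in 37.4% of all promoter windows, GGGCGG (both strands) in 35.7% and TTTGAA (both strands) in 17.9%. A letter match is a description and does not show that a factor binds.

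The labels list 8 batches of single cells, and the table gives no map from wells to batches, so the 4 sort plates (2, 3, 4 and 5) served as technical replicates. Errors and p-values therefore rest on the spread between plates, which edgeR mostly shares over genes, and say nothing of the spread between animals. The 1430 cells held 2109554 UMIs, with a median of 1265 per cell and 483734 to 563679 per plate. All 8 HSC marker genes were detected, among them Hlf in 513 cells and Kit in 451, but Slamf1, which encodes the CD150 of the gate, in only 36. Cd48 had 1 UMI in all cells. Markers of other blood cells were not all absent: 2 of the 5 B cell genes had 183 UMIs together (Cd79a and Ms4a1 were at 0), 1 of the 5 T and NK cell genes had 67 UMIs (Cd3d, Cd3e, Cd3g and Ncr1 were at 0), and all 7 neutrophil and monocyte genes were detected, with 153 UMIs together. The members were covered by few molecules: Mcm6 had 1124 UMIs, Mcm7 660, Mcm5 648, Mcm2 463, Mcm3 367 and Mcm4 307.

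Across the map groups, each of the 6 members was highest on average in group 9 and next highest in group 8, and each was lower in group 10 than in either. Levels are given as UMIs per 1000000 UMIs of the same cells (CPM), so that a higher level is a higher share of the captured molecules, and the mean ± SD is over the 4 plates. The groups may have been made from these same transcripts, so their levels are a description without a test, and the order of the group numbers has no stated meaning. Summed over the 6 members, the level was 2371 ± 745 CPM in group 8 (202 cells), 2962 ± 260 CPM in group 9 (188 cells) and 916 ± 620 CPM in group 10 (42 cells). In groups 2 to 7 as 1 class (988 cells) it was 1067 ± 147 CPM. Taken singly, these groups ran from 857 ± 144 CPM in group 4 to 1572 ± 485 CPM in group 6 (33 cells). Group 9 was above group 8 on all 4 plates, and group 10 below group 9 on all 4. The median UMIs per cell moved as well, with 1433 in group 8, 2341 in group 9 and 1459 in group 10, against 974 to 1246 in groups 2 to 7. The 10 cells of group 1 were not described, but they are part of the CFP fractions below (2 bright, 7 intermediate and 1 dim).

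Both gate subunits had their lowest mean of groups 2 to 10 in group 10. So had Mcm4 (46.7 CPM) and, by a small margin, Mcm6 (261 CPM, against 263 CPM in group 2). Mcm2 had 186, 370, 438 and 361 CPM in group 8 on plates 2, 3, 4 and 5, and 364, 340, 414 and 441 CPM in group 9. In groups 2 to 7 as 1 class the same plates had 117, 120, 127 and 167 CPM, so that neither group 8 nor group 9 overlapped with the class. Single groups of the class did overlap with them, such as group 6 (33 cells) at 309, 414, 229 and 0 CPM on these plates. In group 10 Mcm2 was at 3 UMIs of 77722, which is 38.6 CPM (95% Poisson interval 7.96 to 113), against 134 CPM (114 to 156) in groups 2 to 7. These intervals cover counting error only. Mcm5, the partner at the gate, had 476 ± 170 CPM in group 8 and 520 ± 73.7 CPM in group 9, against 190 ± 27.5 CPM in groups 2 to 7. Its 7 UMIs in group 10 gave 90.1 CPM (36.2 to 186), against 193 CPM (169 to 219) in groups 2 to 7, and its plates there lay at 0.269 to 0.632 times groups 2 to 7.

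Mcm3 had 229 ± 31.6 CPM in group 8 and 338 ± 27.6 CPM in group 9, against 97.9 ± 12.0 CPM in groups 2 to 7. Group 9 was above group 8 on 4 of 4 plates. Of the core subunits, Mcm7 had 233, 449, 591 and 446 CPM in group 8 and 589, 602, 616 and 565 CPM in group 9, against 151 to 194 CPM in groups 2 to 7. Its plates in group 9 were the most even of the 6 members, with an SD of 22.0 CPM. Mcm6 had 691 ± 265 CPM in group 8 and 871 ± 230 CPM in group 9, against 378 ± 121 CPM in groups 2 to 7. Mcm4 had 206 ± 93.5 CPM in group 8 and 250 ± 93.0 CPM in group 9, against 90.5 ± 4.83 CPM. For Mcm2, Mcm4 and Mcm5, group 9 exceeded group 8 on only 2 of 4 plates, so those neighbours did not differ beyond their spread.

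**Figure D1:**
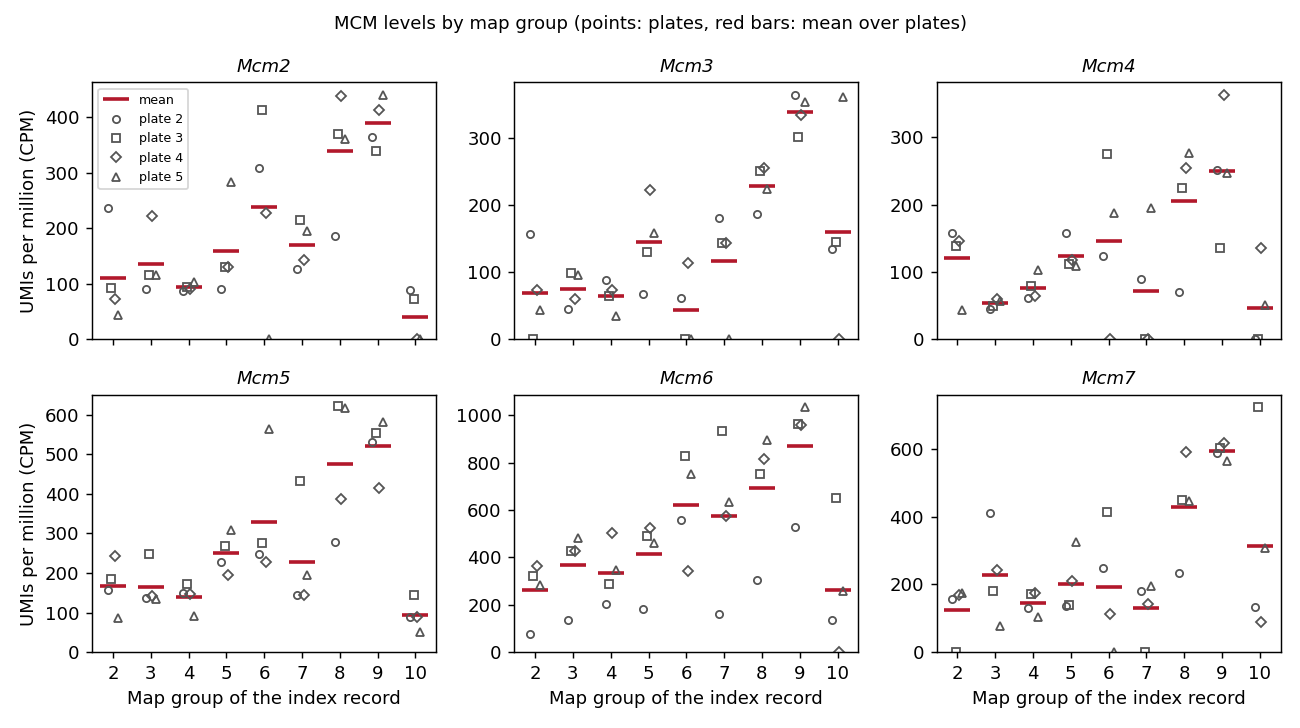
Level of each MCM gene (y axis, CPM) in map groups 2 to 10 of the index record (x axis); open symbols are the 4 sort plates and red bars their mean. Groups 8 and 9 have the high levels, for example Mcm7 at 565 to 616 CPM in group 9, and the scattered points of group 10 rest on 64 MCM UMIs in 42 cells.

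Taking as a first rise the first of groups 8, 9 and 10 in which every plate held at least 1.5 times the level of its own groups 2 to 7, Mcm2, Mcm3, Mcm5 and Mcm6 rose by this rule in group 8, and Mcm4 and Mcm7 in group 9. The difference came from plate 2, where Mcm4 was at 0.768 and Mcm7 at 1.34 times the level of groups 2 to 7 in group 8. On the other plates Mcm4 was at 2.53 to 2.98 times and Mcm7 at 2.30 to 3.08 times. Without plate 2 all 6 members met the rule in group 8, and with a threshold of 2 times none did in group 8. At that threshold Mcm2, Mcm3, Mcm4, Mcm5 and Mcm7 fell short on plate 2 only, with 2.17 times or more on plates 3, 4 and 5. Mcm6 fell short on plates 3 and 4 as well, at 1.82 and 1.73 times.

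In group 10 the other members rested on few UMIs too. Mcm3 had 12 UMIs there, or 154 CPM (79.8 to 270), against 97.1 CPM (80.5 to 116) in groups 2 to 7. Mcm4 had 4, or 51.5 CPM (14.02 to 132), against 90.6 CPM (74.6 to 109). Mcm7 had 21, or 270 CPM (167 to 413), against 177 CPM (155 to 202), and Mcm6 had 17, or 219 CPM (127 to 350), against 385 CPM (351 to 421). The intervals of Mcm3, Mcm4, Mcm5 and Mcm7 overlapped with those of groups 2 to 7, and differences between members were not tested. Single plates carried some of these values: plate 3 held 9 of the 17 Mcm6 UMIs and 10 of the 21 Mcm7 UMIs, and plate 5 held 7 of the 12 Mcm3 UMIs. Without plate 3, group 10 stood at 125 CPM for Mcm6 and 172 CPM for Mcm7, and without plate 5 at 85.8 CPM for Mcm3. Mcm2 stood at 18.0 CPM without plate 2, and Mcm4 at 18.0 CPM without plate 4. As a share of all MCM UMIs, Mcm7 made up 32.8% in group 10 (exact binomial 95% interval 21.6 to 45.7), 20.2% in group 9 (18.1 to 22.4) and 16.5% in groups 2 to 7 (14.5 to 18.6). Mcm6 made up 26.6% in group 10 (16.3 to 39.1), 28.6% in group 9 (26.2 to 31.1) and 35.8% in groups 2 to 7 (33.2 to 38.4).

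The mean summed levels of licensing and fork genes were likewise higher in groups 8 and 9 than in group 10, except that on plate 3 licensing genes were at 1.81 times groups 2 to 7 in group 10 and 1.65 times in group 8. Those of mitotic genes were highest in group 10. Summed levels of each list are given relative to groups 2 to 7 of the same plate, as mean fold ± SD over plates. The 6 MCM genes together were at 2.18 ± 0.468 in group 8, 2.79 ± 0.201 in group 9 and 0.858 ± 0.551 in group 10. The 9 licensing genes, which load the helicase (Orc1 to Orc6, Cdc6, Cdt1) or restrain loading (Gmnn), were at 2.47 ± 1.32, 2.58 ± 0.476 and 0.837 ± 0.749 in the same groups. The 30 measured fork genes, of polymerases, clamp, clamp loader and chromatin assembly, were at 1.92 ± 0.299, 2.35 ± 0.113 and 1.11 ± 0.307. The 11 genes of helicase activation, such as Cdc45 and the GINS subunits, were at 2.03 ± 0.343 and 2.71 ± 0.515 in groups 8 and 9, and with 2.21 ± 0.773 still stood above groups 2 to 7 on 4 of 4 plates in group 10. The 15 mitosis genes were at 1.97 ± 1.12 in group 8, 4.29 ± 2.14 in group 9 and 16.0 ± 5.32 in group 10, where the lowest plate was at 10.9.

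**Figure D2:**
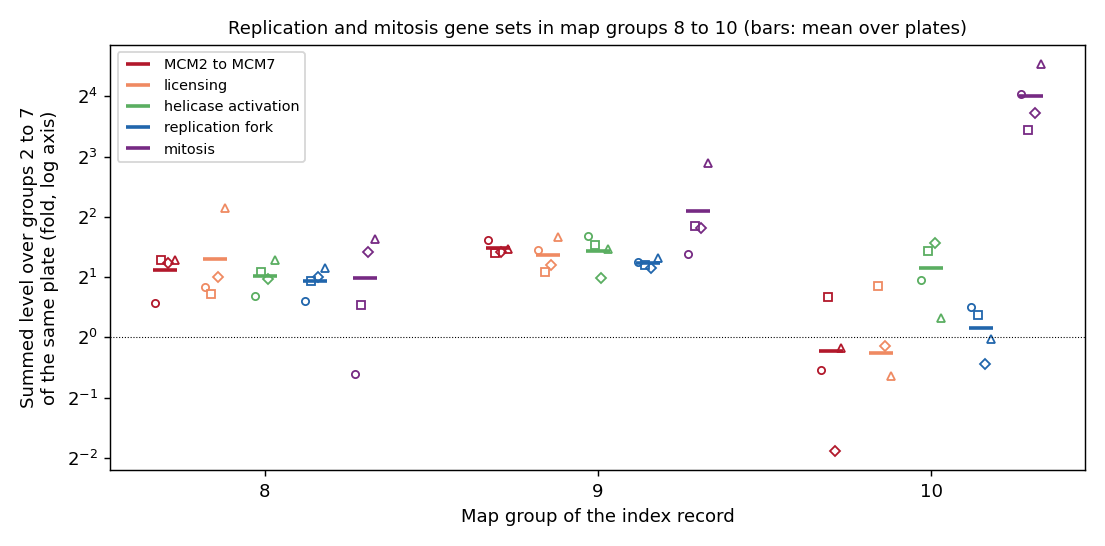
Summed level of 5 gene sets in map groups 8, 9 and 10 (x axis), each divided by the level in groups 2 to 7 of the same plate (y axis, fold on a log2 axis); symbols are plates (circle 2, square 3, diamond 4, triangle 5) and bars are means. In group 10 the mitosis set is at 16.0 times and the MCM set at 0.858 times groups 2 to 7; the licensing set of plate 2 is at 0 in group 10 and has no symbol.

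The genes whose profile over groups 2 to 10 was most like that of the summed MCM UMIs were sought among 2304 genes with at least 200 UMIs. The measure was Pearson's r of log2(CPM + 10) over 9 groups, which share their libraries and depth. Pcna, the sliding clamp of the polymerases, came first with r = 0.971 and had 546 CPM in group 8, 691 in group 9 and 98.4 in group 10. Next were Dut, which removes dUTP (0.959), Elp2 of the Elongator complex (0.955), Dctpp1, a nucleotide pyrophosphatase (0.941), the translation factor gene Eif5a (0.939), Cad of pyrimidine synthesis (0.932), Siva1 (0.928) and Nme1, a nucleoside diphosphate kinase (0.917). Among the members, Mcm2 and Mcm5 were the most alike (0.979) and Mcm2 and Mcm3 the least (0.362), with Mcm3 and Mcm7 at 0.804. Each group counts alike in r, and some held few UMIs. Mcm3 had 2 UMIs in group 6, where Mcm2 had 10, and Mcm2 had 3 in group 10, where Mcm3 had 12. Whether the r of the pairs differ beyond counting error was not tested.

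Each of the 6 members was higher in the CFP-bright fraction, by 0.98 to 1.53 against the CFP-dim fraction on the log2 scale. Fold changes and p-values are from edgeR's quasi-likelihood test on UMIs summed per plate and fraction, with plate as a block and Benjamini-Hochberg adjustment over all 3836 genes tested. All 6 members passed the filter on low counts, and all 6 were called higher. Of all genes tested, 6.02% were called higher in bright cells and 10.1% in either direction. The median log2 fold change was 1.27 over the members and -0.02 over all genes tested. Bright and dim cells also differed in their make-up: 66.7 ± 7.09% of bright cells and 9.49 ± 5.12% of dim cells were in map groups 8 to 10, and the plate medians were 1830 ± 118 UMIs per cell in bright and 1091 ± 109 in dim cells.

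At the gate, Mcm2 had 273, 312, 319 and 328 CPM in bright cells of plates 2, 3, 4 and 5, against 74.6, 117, 144 and 192 CPM in dim cells. The plates of the 2 fractions did not overlap, and the log2 fold change was 1.20 ± 0.23 (SE; edgeR adjusted p = 5.6e-05). Mcm5 had 516, 524, 319 and 421 CPM in bright cells, against 186, 188, 144 and 282 CPM in dim cells. Here too every bright plate was above every dim plate, with a log2 fold change of 1.12 ± 0.20 (edgeR adjusted p = 7.3e-06). Mcm3 had 295, 259, 223 and 252 CPM in bright cells, against 124, 70.4, 65.5 and 89.8 CPM in dim cells. It had the highest fold change of the 6, at 1.53 ± 0.27 (edgeR adjusted p = 1.3e-05), again with no overlap.

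Among the core subunits, Mcm7 had 479, 537, 485 and 427 CPM in bright cells, against 186, 117, 196 and 244 CPM in dim cells. Its log2 fold change was 1.36 ± 0.19, with the lowest adjusted p of the 6 (edgeR, 4.1e-08), and its fractions did not overlap. Mcm4 had 243, 146, 274 and 193 CPM in bright cells, against 87.0, 82.2, 78.6 and 76.9 CPM in dim cells, which were nearly level across plates. Its log2 fold change was 1.35 ± 0.30 (edgeR adjusted p = 0.00053). Mcm6 had 427, 915, 708 and 843 CPM in bright cells, against 211, 446, 393 and 398 CPM in dim cells. It was the one member whose fractions overlapped, because the bright cells of plate 2 lay below the dim cells of plate 3. Within each plate, however, the log2 ratio of bright to dim was 1.02, 1.04, 0.85 and 1.08, the narrowest spread of the 6, and the fitted change was 0.98 ± 0.16 (edgeR adjusted p = 1.8e-06). Differences between members were not tested. With each cell thinned to 1000 UMIs before summing, the calls of Mcm2, Mcm3 and Mcm5 ended (edgeR adjusted p 0.172, 0.128 and 0.106), and without the plate block that of Mcm6 did (0.0944), with all fold changes still positive.

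**Figure D3:**
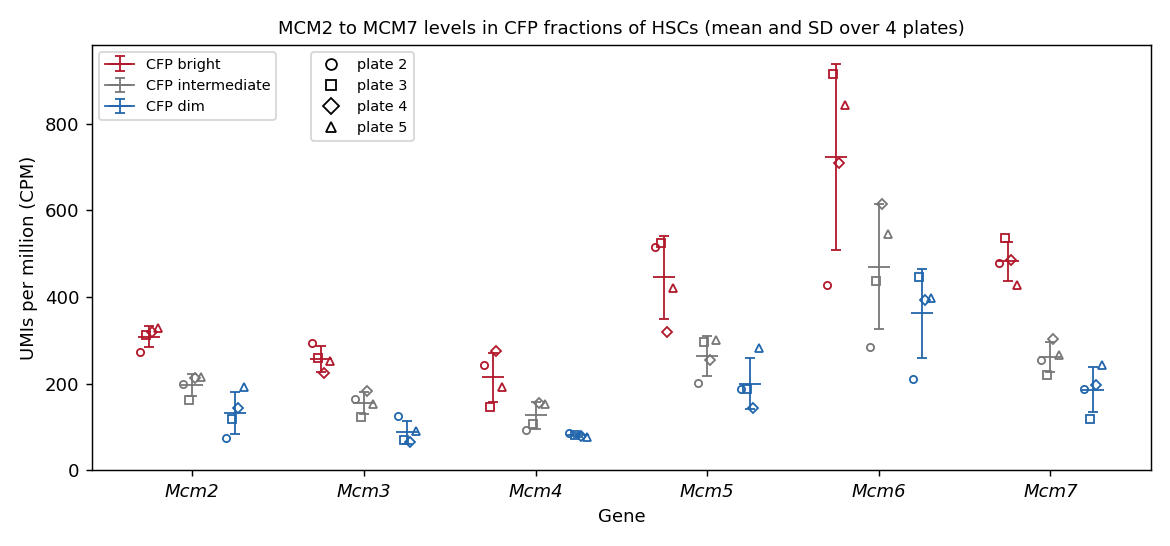
Level of each MCM gene (y axis, CPM) in CFP-bright, CFP-intermediate and CFP-dim cells; symbols are the 4 sort plates, bars the mean with its SD. Bright plates lie above all dim plates for 5 genes, and for Mcm6 the bright cells of plate 2 (427 CPM) lie below the dim cells of plate 3 (446 CPM).

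The intermediate cells lay between the other fractions in the mean of every member, from 127 ± 31.6 CPM for Mcm4 to 470 ± 144 CPM for Mcm6. Bright cells were above intermediate cells for all 6 members (log2 fold change 0.61 to 0.87, edgeR adjusted p 2.7e-07 to 0.0088), where 5.66% of all genes were called higher and 9.38% in either direction. Without the plate block 1 of 6 was called and with DESeq2 3 of 6, beside 79 and 150 of the 3836 genes tested. Leaving out plate 2 or plate 4 ended the call of Mcm4 (edgeR adjusted p 0.132 and 0.0939), and leaving out plate 3 those of Mcm2 (0.0601) and Mcm3 (0.0604). In intermediate against dim cells edgeR called 0 of 6 members, as did DESeq2, although all 6 were positive (0.37 to 0.82), and all 6 had an unadjusted p under 0.05 (1 of 6 by DESeq2). In that comparison 0.0261% of all genes were called. Of the 3836 genes tested, 290 had an unadjusted p under 0.05 by edgeR and 122 by DESeq2. The 3 comparisons share their fractions, so they are not independent of each other.

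Split into 5 CFP quintiles within plates, the summed MCM level was 1049 ± 173 CPM in the dimmest quintile, then 1245 ± 189, 1420 ± 253 and 1689 ± 471, and 2433 ± 196 CPM in the brightest. The brightest quintile had the highest mean for all 6 members. Its plates (2237 to 2692 CPM) overlapped only with plate 5 of the quintile below it, at 2288 CPM. Mcm7 went up with each quintile, with means of 187, 212, 265, 291 and 485 CPM, and Mcm3 likewise, with 87.8, 129, 146, 183 and 257 CPM. For Mcm5 quintile 3 (236 ± 75.7 CPM) was not above quintile 2 (249.3 ± 77.4 CPM), and for Mcm4 quintile 4 (134.7 ± 62.4 CPM) was not above quintile 3 (135.1 ± 26.1 CPM). Between neighbouring quintiles below the brightest, the summed levels' differences were within the spread between plates.

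**Figure D4:**
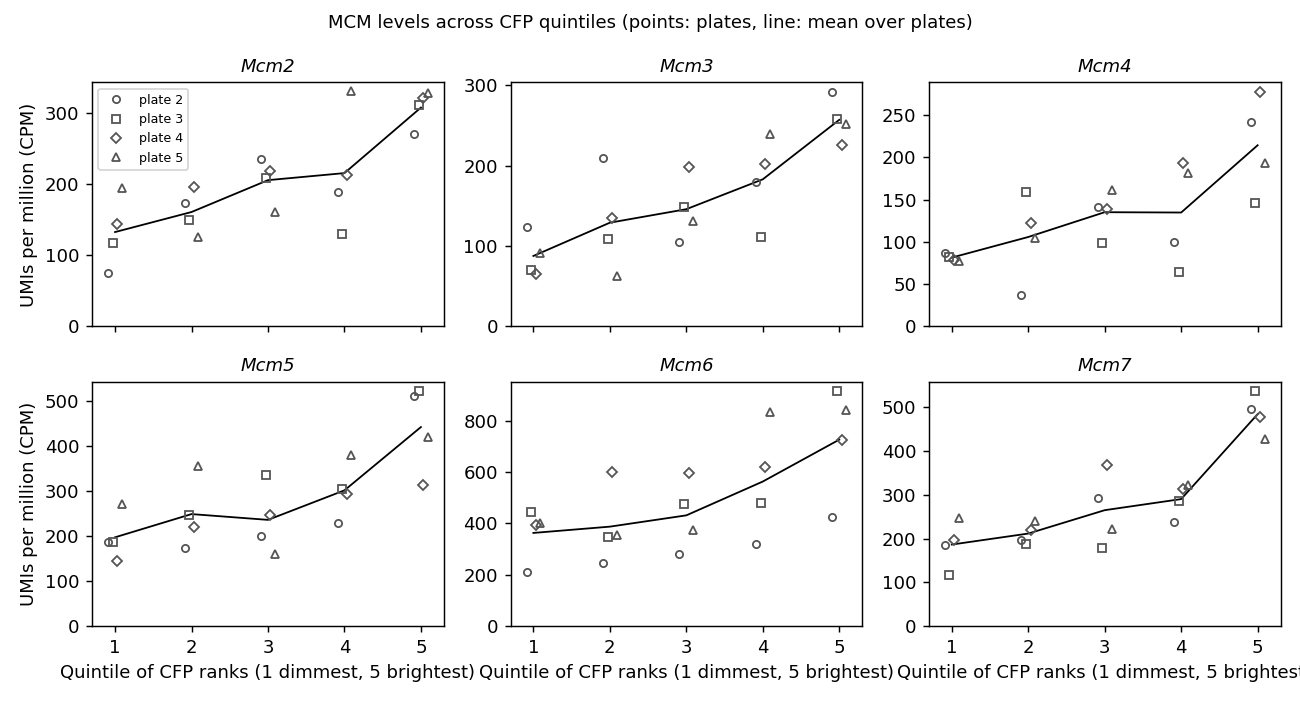
Level of each MCM gene (y axis, CPM) in quintiles of the CFP ranks within a plate (x axis, 1 dimmest to 5 brightest); symbols are the 4 sort plates and the line joins their means. The largest step is that to the brightest quintile, for example in the means of Mcm7, at 291 CPM in quintile 4 and 485 CPM in quintile 5.

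The share of cells with an MCM UMI was higher in bright than in dim cells on each plate. To compare cells of unequal depth, the 1025 cells with at least 1000 UMIs (255 bright, 611 intermediate and 159 dim) were thinned to 1000 UMIs each. At least 1 MCM UMI was present in 86.0 ± 3.89% of bright, 64.1 ± 7.63% of intermediate and 59.8 ± 4.14% of dim cells (SD over plates). Without thinning, over all cells, the shares were 87.9 ± 5.24% in bright and 58.5 ± 8.80% in dim cells. For Mcm7 the thinned share was 37.9 ± 6.86% in bright and 15.2 ± 3.83% in dim cells, and for Mcm4 16.8 ± 1.90% and 5.15 ± 2.27%. For Mcm6 it was 47.5 ± 16.3% in bright and 28.8 ± 4.55% in dim cells, with both at 23.8% on plate 2. The share was higher in bright cells on 4 of 4 plates for the other 5 members and on 3 of 4 for Mcm6. Flipping the sign of the bright minus dim difference plate by plate, an exact permutation test (two-sided), gave p = 0.13 for those 5, the smallest that 4 plates allow, and p = 0.25 for Mcm6.

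UMIs of several members were also found in the same cell: 70 of 255 bright cells (27.5%), 80 of 611 intermediate cells (13.1%) and 9 of 159 dim cells (5.66%) held at least 3 of the 6 members after thinning. By map group, this share was 31.7% of the 164 thinned cells of group 8 and 64 of the 178 of group 9, but 1 of 30 cells (3.33%) in group 10, against 3.32% to 16.7% in groups 2 to 7. Only 1 cell, an intermediate one, held all 6. The 106 wells without an index record held 25068 UMIs, of which 39 were of the members (1556 CPM, against 1692 CPM in the cells). At least 1 was present in 30.2% of these wells. They held at most 502 UMIs each, where every recorded cell held at least 511. Whether they were empty or held a cell is not stated, so they do not give a level of stray molecules. Their median was 224 UMIs, well under the thinning depth, so that their share cannot be set beside the shares of the thinned cells. The part of stray molecules in the shares of the thinned cells was not tested.

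To see whether the CFP difference was present among cells of like map group, sums were made per plate, fraction and class of map group. Inside groups 2 to 7, the 93 bright cells had 1563 CPM of the 6 members together (95% Poisson interval 1361 to 1786), against 1000.0 CPM (887 to 1124) in the 258 dim cells. The log2 fold change was positive for all 6 members, from 0.38 ± 0.36 for Mcm7 to 1.01 ± 0.48 for Mcm3, with a median of 0.65 against -0.01 over all genes. None was called by edgeR or DESeq2, where 0% of all genes were called by edgeR. Unadjusted p-values were under 0.05 for 3 members by either tool, namely by edgeR for Mcm6 (0.0119; log2 fold change 0.60 ± 0.24), Mcm5 (0.0189; 0.74 ± 0.32) and Mcm3 (0.0336). Of all 2619 genes tested, 178 had such a p by edgeR and 165 by DESeq2. Mcm7 was at -0.05 without plate 3. Without plate 4, 0 members had an unadjusted p under 0.05 by edgeR, where 154 of 2669 genes had one. Bright cells made up 7.1% to 18.2% of the single groups 2 to 7, and the comparison was not matched for this.

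Inside groups 8 to 10 the comparison rested on 27 dim cells with 52 MCM UMIs, set against 191 bright cells with 1273. Groups 8, 9 and 10 held 14, 8 and 5 of the dim cells and 62, 107 and 22 of the bright cells. The comparison was not matched for this either. The summed level was 2701 CPM (2555 to 2854) in bright, 2572 CPM (2407 to 2747) in intermediate and 1475 CPM (1102 to 1935) in dim cells. All 6 log2 fold changes were positive, with a median of 1.09, while the median of all genes was itself at 0.39 with TMM scaling and at 0.12 with DESeq2 size factors. Mcm6 was called (1.55 ± 0.40, edgeR adjusted p = 0.0124), among 2.02% of all genes called higher (2.1% in either direction). Its call ended with DESeq2 size factors (1.24, adjusted p = 0.15), without plate 3 (1.43, 0.116) and without plate 5 (1.17, 0.213). With CFP ranked anew inside the class, chosen after seeing the data, its log2 fold change was 0.28 (edgeR adjusted p = 0.714) and Mcm2 was at -0.03.

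The CFP effect did not differ detectably between the 2 classes. The interaction term ran from -0.12 ± 0.72 for Mcm3 to 0.95 ± 0.49 for Mcm6, and 0 of 6 members were called by edgeR or by DESeq2, with 0 at an unadjusted p under 0.05 by either. Among the 2619 genes tested, 274 had such a p by edgeR and 169 by DESeq2. Of all genes, 0.382% were called, and the median term of all genes was 0.40 with TMM scaling and 0.11 with DESeq2 size factors. The SEs were 0.49 to 0.90, so that a difference of 1 log2 unit between the classes could have been missed.

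**Figure D5:**
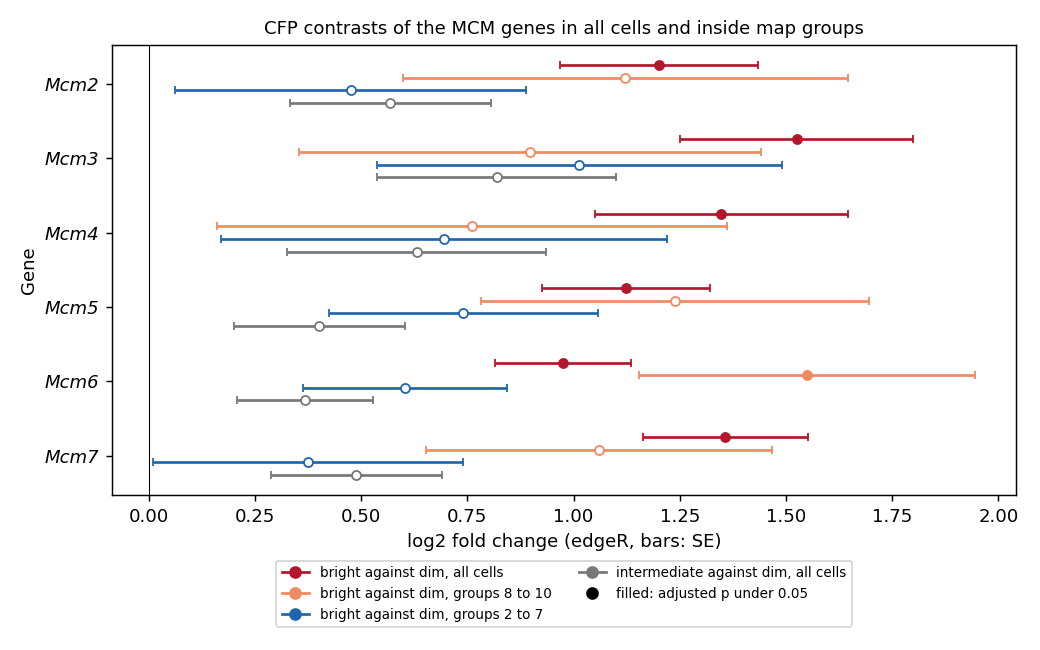
Log2 fold change (x axis; bars are the edgeR SE) of each MCM gene for CFP-bright against dim cells in all cells, inside map groups 8 to 10 and inside groups 2 to 7, and for intermediate against dim cells; filled symbols have an adjusted p under 0.05. All values are above 0, all 6 are called in all cells, and inside the classes only Mcm6 in groups 8 to 10 is called.

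The other genes of the pathway were read from lists chosen by function. Of 9 licensing genes 3 passed the low-count filter, and 2 rose in bright against dim cells: Gmnn, which encodes the Cdt1 inhibitor geminin (1.95 ± 0.49, edgeR adjusted p = 0.0035), and Cdt1 (1.60 ± 0.34, 0.00035). Of 12 genes of helicase activation 3 were tested and 1 rose, Topbp1, which helps to recruit Cdc45 (1.31 ± 0.33, edgeR adjusted p = 0.0037). Of 31 fork genes 21 were tested, 15 rose and 0 fell (median 1.07), led by the histone chaperone Asf1b (2.18 ± 0.55) and the polymerase subunit Pold1 (1.88 ± 0.30). Of 17 genes of E2F and G1/S control 7 were tested and 1 rose, the E2F target and repressor E2f8 (2.17 ± 0.56). Of the MCM relatives only Mcmbp, the MCM binding protein gene, was tested, and at 0.15 ± 0.29 it was not called. Of 15 mitosis genes 10 were tested and 8 rose (median 1.95), led by Aurkb (2.93 ± 0.56) and Birc5 (2.51 ± 0.37). Of 8 HSC markers 6 were tested and 2 fell, Mecom (-1.18 ± 0.30) and Hlf (-0.97 ± 0.18). Markers of other blood cells did not pass the test in either direction: 1 of 5 B cell, 2 of 7 erythroid and 3 of 5 megakaryocyte genes were tested and 0 were called, and none of the 5 T and NK cell or 7 neutrophil and monocyte genes passed the filter on low counts. The summed erythroid level ranged from 273 to 1600 CPM over plates in bright cells and from 314 to 4390 CPM in dim cells. These fractions include cells of map group 1. In groups 2 to 10 the erythroid level was at most 1012 CPM on any plate of a group. The megakaryocyte level ranged from 398 to 673 CPM in bright and from 224 to 485 CPM in dim cells. The HSC marker level ranged from 1150 to 1700 CPM and from 1490 to 2010 CPM. The part of these levels in the MCM difference was not tested.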

How the data were processed

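The authors deposited unnormalized UMI counts for each gene in each well, and an index-sort record of the wells. The submitters' processing notes name bcl2fastq 2.15.0.4, Bismark 0.19.0, cutadapt, DESeq2, featureCounts, STAR, mm9 and mm10 without saying which step used which. For the conversion of reads to UMIs, the tools are not given in the sources consulted. The deposited record holds CFP as a log10 value, ranked here within a plate, and forward scatter area as an intensity, used to correct CFP in an alternative. The cDNA was primed with poly(T), per the labels' protocols, and levels were not compared between genes. Cells with a record and at least 500 UMIs were kept. No doublet caller was run on these single-cell sorts.

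UMIs were summed per plate and fraction and tested with edgeR 4.0.16 in R 4.3.3 (filterByExpr, TMM, quasi-likelihood F test, threshold 0.05). Plate was a block because the fractions of a plate were cut from one sort. The SE is the log2 fold change divided by the square root of F. It rests more on the spread shared over genes than on a gene's own spread between plates. The fraction fit had 93 prior (shared) against 6 residual degrees of freedom. In the fit by class the prior was infinite, against 15 residual degrees of freedom. Alternatives were DESeq2 1.42.0 or its size factors, no filter, no block, fractions of 10% and 33%, cells of at least 1000 UMIs, thinned cells, CFP corrected for forward scatter, and each plate left out. The bulk RNA-seq and bisulphite samples were not analysed here. The fit was also run on simulated counts that had no plate effect and the same dispersion for every gene. That run cannot show how the fit does where plates differ, as they did here. Named genes of a list are its 2 largest called changes. The members and lists were chosen with earlier results of these data known. Libraries held 76354 to 314856 UMIs.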

Additional observations from a re-analysis of the deposited data

Results flagged for a closer look

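Of 49 sets of 4 plate values looked at, 2 had a plate far from the other 3, in both cases plate 2. At 1 set in 20 chance would give about as many among independent sets. These sets share plates and UMIs, so the count cannot be judged against chance. In map group 8 the summed members were at 1258 CPM on plate 2, against 2668, 2742 and 2817 CPM on plates 3, 4 and 5. In map group 9 Mcm6 was at 530 CPM on plate 2, against 962, 960 and 1033 CPM on plates 3, 4 and 5.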

How the results depend on the processing

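For bright against dim cells, 74 of 78 values of single members under alternatives kept their direction and their call, and none changed sign. All 6 members were called with each plate left out (6 to 6 members, 245 to 342 of all genes, against 387 with all plates; 245 without plate 4 and 245 without plate 5). Without the replicate block, 5 members and 122 genes were called; Mcm6 was then at an adjusted p of 0.0944. DESeq2 called 6 members and 207 genes. With cells thinned to 1000 UMIs, which left 1590 genes to test, 3 members and 105 genes were called. For bright against intermediate cells, 2 members were called with thinned cells, 3 with DESeq2, 3 with fractions of 33% and 1 without the replicate block. Of all genes, 91 of 1590, 150 of 3836, 135 of 4035 and 79 of 3836 were called in these settings, against 360 of 3836 in the main fit. Leaving out a plate gave 4 to 6 members and 207 to 316 of all genes. Inside map groups 8 to 10, 0 members were called with DESeq2, DESeq2 size factors, fractions of 33%, no replicate block or CFP ranked anew (chosen after seeing the data). In that order 14, 14, 30, 17 and 56 of all genes were called there, against 55 in the main fit. With no filter on low counts 3 were called. There 251 of 13132 genes were called higher, and the median log2 fold change of all genes was 1.02. Without a plate 0 to 1 members were called, beside 13 to 42 of all genes. The interaction changed sign in 14 of 66 values, most often for Mcm4 (6), then Mcm3 (3), Mcm5 (3), Mcm2 (1) and Mcm6 (1). For Mcm4 it was -0.22 with DESeq2, -0.24 with DESeq2 size factors, -0.021 with cells of at least 1000 UMIs, and -0.77 to 1.34 over plates left out (negative without plate 2 or 3). For Mcm3 it was 0.38 with fractions of 33%, 0.47 with no filter and -0.66 to 0.94 over plates left out. For Mcm5 it was -0.17 with fractions of 33% and -0.071 to 0.96 over plates left out. With CFP ranked anew it was -0.68 for Mcm2, -0.52 for Mcm4, -0.87 for Mcm5 and -0.28 for Mcm6, and Mcm2 inside groups 8 to 10 was at -0.03. Mcm7 inside groups 2 to 7 was at -0.05 without plate 3 (-0.05 to 0.66 over plates left out). The causes were not tested. The count of members with a first rise in group 8 was 4, with 0 at a threshold of 2 times, 2 with thinned cells and 4 to 6 without a plate. The share of cells with a UMI was higher in bright cells on every plate for 5 or 6 members with no thinning, thinning to 800 UMIs or a plate left out. Depth limited group 10, with 64 MCM UMIs, and the dim cells of groups 8 to 10, with 52.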

Other observations

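Mcm6 was lower on plate 2 than on the other plates, and the other members were not to that degree. Over all cells it had 312 CPM on plate 2, against 570, 610 and 616 CPM on plates 3, 4 and 5. It made up 21.8% of the MCM UMIs on plate 2 (exact binomial 95% interval 18.8 to 25.1), against 34.2% (31.1 to 37.4), 33.8% (30.8 to 37.0) and 33.5% (30.6 to 36.5) on plates 3, 4 and 5. Mcm7 had 306 CPM on plate 2 and 291 to 343 CPM on the other plates. The lower Mcm6 level was seen inside map groups 2 to 7 (201 CPM on plate 2, against 414 to 473 CPM) and inside groups 8 to 10 (444 CPM, against 798 to 908 CPM), and in bright, intermediate and dim cells alike. The labels do not say how the plates differ.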
